A study of Mus musculus with 4 samples.

Results

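The fibroblast growth factor (FGF) family was followed in the mouse dentate gyrus after electroconvulsive stimulation (ECS), a brief electrical stimulus that induces a seizure. Genes were chosen by symbol: the ligands named Fgf, the receptors Fgfr1 to Fgfr4, the receptor-like Fgfrl1, the binding proteins Fgfbp1 and Fgfbp3, the klotho genes Kl and Klb, the FLRT genes Flrt1 to Flrt3 and the adaptors Frs2 and Frs3. The rule found 36 genes with 48 RefSeq transcripts, and 33 of these genes, 22 of them ligands named Fgf, had probesets, out of 18010 measured genes in the series. Fgfbp1, Fgfbp3 and Flrt1 have no probeset in the mapping and are listed at 0, so they were not analysed here. The 45 transcripts with probesets gave 35 distinct rows, because only Fgf12 and Fgf14 had transcripts with different probesets.

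The series compares gene expression in the dentate gyrus after ECS and after sham handling and consists of 4 Affymetrix exon arrays. The ECS group has 2 arrays of tissue taken 4 h after a pulse train that lasted 1.0 s (100 Hz, pulse width 0.3 ms, 18 mA), and the sham group has 2 arrays of tissue taken 4 h after sham handling. All mice were 8-week-old male wild-type C57 Black 6 animals, and the dentate gyrus was dissected from whole hippocampus, so each array holds RNA of all its cell types. Arrays of 1 group are biological replicates per the labels, which leave unsaid if each came from a single animal or from pooled ones. The arrays are called ECS 1, ECS 2, sham 1 and sham 2 by the labels' replicate numbers. Values are log2 expression after robust multi-array averaging (RMA). A gene's value is the mean over its probesets, short probe groups that each cover a stretch of an exon. Probesets of a gene are read on the same arrays and make up its value. They are not replicates, and their agreement is not independent of that value.

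FGFs are secreted proteins that signal through receptor tyrosine kinases together with heparan sulfate, a sugar chain of the cell surface. Endocrine FGFs bind heparan sulfate weakly and need a klotho protein as co-receptor, while the FGF homologous factors stay inside the cell and bind voltage-gated sodium channels. Activated receptors phosphorylate FRS adaptors, which recruit GRB2 and switch on the Ras-MAPK cascade, and this cascade induces its own inhibitors of the Sprouty, SPRED and DUSP families. In the hippocampus FGF signalling is known for its part in progenitor proliferation, in synapse formation and in the excitability of neurons.

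The arrays resembled each other closely, with correlations across genes of 0.993 within both groups and of 0.987 to 0.990 between groups. Median log2 values were 7.26 on ECS 1, 7.20 on ECS 2, 7.25 on sham 1 and 7.35 on sham 2. Granule cell identity was present, since Prox1 read 9.60 and 9.53 on ECS arrays and 9.29 and 9.40 on sham arrays, and C1ql2 read 10.35 and 10.49 on ECS arrays and 10.44 and 10.55 on sham arrays. Of 11 measured granule cell markers, 7 had both ECS arrays below both sham arrays, where 30.7% of all genes did. The 11 markers had a median difference of -0.52. Tdo2 and Dsp among them passed the test as lower after ECS, where 0.194% of all genes did. One array stood apart in choroid plexus markers: all 11 were highest on sham 2, and their summed intensity was 1854 and 1351 on ECS arrays against 1425 and 4347 on sham arrays. Of 8 meningeal markers, 7 were highest on sham 2 as well. All 5 measured blood markers had both ECS arrays above both sham arrays, where 18.7% of all genes did, with a median difference of 0.79. They are 3 separate measurements, since Hba-a1 and Hba-a2 share their probesets, as do Hbb-b2 and Hbb-bt. Median differences of the other marker lists were 0.15 for the oligodendrocyte lineage, 0.02 for interneurons and mossy cells, 0.01 for astrocytes, -0.02 for endothelial and mural cells, -0.05 for microglia, -0.09 for ependymal and -0.12 for meningeal cells, and -0.000165 for pyramidal cells.

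No gene of the family passed the test 4 h after ECS, a limma fit over all 18010 genes with Benjamini-Hochberg adjustment and a threshold of 0.05. The count was 0 higher and 0 lower of 33, where over all genes 0.5% were called higher (90 genes) and 0.194% lower (35 genes). At an unadjusted p under 0.05, 2 family genes were higher (Fgfr1 and Fgfr4) against 6.39% of all genes, and 4 were lower (Kl, Fgf5, Flrt3 and Fgf14) against 10.5% of all genes. With arrays centred on their medians these counts were 4 higher and 3 lower in the family, and over all genes 1921 higher and 1117 lower, against 1150 and 1888 as deposited. At least 1.5-fold differences were seen for 0 genes upward, against 1.52% of all genes, and for 2 downward (Kl and Fgf5), against 1.49%. The median difference of the family was -0.01 on the log2 scale, beside -0.04 over all genes, and 19 of the 33 differed by less than 0.2 in either direction.

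Counted by array, 5 family genes had both ECS arrays above both sham arrays (Fgf2, Fgf18, Fgfr1, Fgfr3 and Fgfr4), where 18.7% of all genes did. Another 9 had both ECS arrays below both sham arrays (Kl, Fgf5, Flrt3, Flrt2, Fgf14, Fgf8, Fgf9, Fgf10 and Fgf3), where 30.7% of all genes did. The other 19 overlapped. These shares of the family, 15.2% above and 27.3% below, were near the shares over all genes. In tissue RNA, fewer cells of a type and less RNA per cell cannot be told apart. The number of arrays limits the precision: standard errors (SE) of the family's differences ran between 0.09 and 0.32, with a median of 0.11, and a 95% interval spans 2.54 SE on either side.

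**Figure D1:**
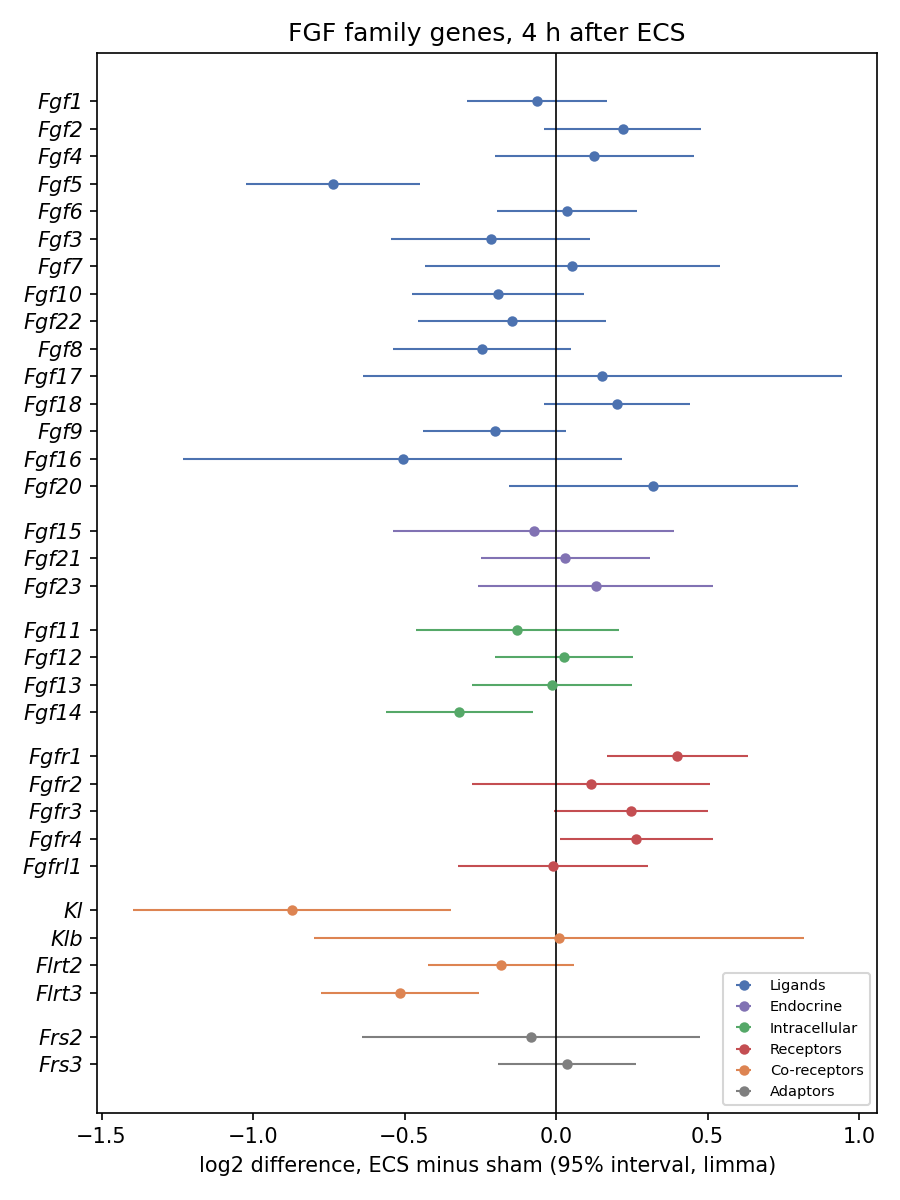
Difference in log2 expression between ECS and sham dentate gyrus (ECS minus sham, x axis) for the 33 measured FGF family genes (y axis), grouped by role. Points are differences of 2 ECS and 2 sham arrays and bars are 95% intervals of the limma fit, not adjusted for the number of genes; Fgf5, Fgf14, Kl and Flrt3 lie left of 0 with their whole interval, Fgfr1 and Fgfr4 right of it.

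Among the 15 secreted ligands that act near their source, Fgf5 had the largest difference. Fgf5, a ligand of the FGF4 group known as the signal that ends hair growth, read 6.27 and 6.05 on the ECS arrays, against 6.95 and 6.85 on the sham arrays. Both ECS arrays lay below both sham arrays, with a gap wider than the distance between arrays of either group. The difference was -0.74 ± 0.11 (SE, 2 arrays a group; 95% interval -1.02 to -0.45), which is 1.67-fold lower after ECS, with a limma adjusted p of 0.0784. All 10 Fgf5 probesets were lower after ECS, by differences between -1.27 and -0.49. Of them, 7 had both ECS arrays below both sham arrays, where 25.6% of all probesets did. Without the dimmest 25% of genes, limma called 216 of 13507 genes lower. When the dimmest 25% of genes were left out, the adjusted p of Fgf5 was 0.0319, and with trend and robust eBayes, which called 1.95% of all genes lower, it was 0.0325, both past the threshold; over all alternatives it ran between 0.0319 and 0.248.

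The start region of Fgf5 is shown because it is the gene with the smallest adjusted p in the family. RefSeq (GRCm38.p6) places it on the plus strand at chr5:98253934-98254233, 250 bases before to 50 after the gene's start, and capitals mark the TATAAA match that begins 35 bases after that start.
Fgf5 promoter: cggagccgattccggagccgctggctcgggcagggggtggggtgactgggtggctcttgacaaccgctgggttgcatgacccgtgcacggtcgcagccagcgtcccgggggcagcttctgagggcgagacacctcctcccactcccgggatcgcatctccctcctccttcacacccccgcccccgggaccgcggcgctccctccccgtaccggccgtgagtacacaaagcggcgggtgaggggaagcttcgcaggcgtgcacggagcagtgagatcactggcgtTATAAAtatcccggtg
TATAAA was searched on both strands and was found in 13.6% of 32851 mouse promoters of this length and in 9.09% of 33 promoters of 26 family genes, those of Fgf13, Fgf21 and Fgf5. Of the motifs of activity-responsive transcription factors, the full cAMP response element TGACGTCA and the EGR motif GCGTGGGCG were in 0 family promoters, where 1.79% and 0.612% of all promoters held them. The shorter element TGACG, which TGACGTCA contains, was in 21.2% of family promoters against 20.8% of all, and the AP-1 motif TGANTCA in 6.06% against 7.81%. The CArG box, the motif of serum response factor, was in 0 family promoters and in 1.63% of all. Family promoters had a median of 63.7% G and C and 18 CpG dinucleotides, beside 52.7% and 7 over all promoters. These are descriptions of letters in a window and say nothing of binding.

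Fgf2, the basic FGF that keeps neural progenitors dividing in culture, read 7.58 and 7.41 on ECS arrays and 7.30 and 7.25 on sham arrays. The ECS arrays were above the sham arrays, by 1.17-fold, and the difference was 0.22 ± 0.10 (SE, limma adjusted p = 0.349). It rests on 2 probesets, which had 0.02 and 0.43. Fgf1, the acidic FGF, read 7.16 and 7.09 on ECS arrays and 7.15 and 7.23 on sham arrays, and the groups overlapped. Its 3 own probesets had a mean difference of -0.15, and the 3 that are also listed for Gm5820 on the opposite strand had 0.03. Fgf4 and Fgf6, the other members of the FGF4 group, had differences of 0.13 and 0.04, both with overlapping groups.

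Members of the FGF7 group, which bind the epithelial splice form of FGFR2, had small differences. Fgf22, known in mice as a presynaptic organizer of excitatory synapses in hippocampal CA3, read 6.29 and 6.52 on ECS arrays and 6.47 and 6.64 on sham arrays, a difference of -0.15 ± 0.12 (SE, limma adjusted p = 0.594). Its groups overlapped. Fgf7, the partner of FGF22 that organizes inhibitory synapses there, had 0.05 ± 0.19, and all 7 of its probesets are also listed for Fam227b on the opposite strand. Fgf10 had -0.19 ± 0.11 and Fgf3 -0.22 ± 0.13, both with the ECS arrays below the sham arrays and adjusted p of 0.444 and 0.455 by limma. Fgf3 and Fgf7 were among the dimmest 25% of all genes.

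In the FGF8 group, which patterns the embryonic brain, Fgf8 and Fgf18 pointed opposite ways. Fgf8 read 6.27 and 6.44 on ECS arrays and 6.70 and 6.50 on sham arrays, a difference of -0.24 ± 0.12 (SE, limma adjusted p = 0.36). All 8 Fgf8 probesets had a negative difference, though 5 of them overlapped between groups. The other 3 had both ECS arrays below, where 25.6% of all probesets did. Fgf18 read 7.27 and 7.34 on ECS arrays and 7.16 and 7.04 on sham arrays, a difference of 0.20 ± 0.10 (SE, limma adjusted p = 0.359). Its 4 probesets disagreed, with 2 above, 1 below and 1 overlapping, between -0.46 and 0.78. Over all probesets, 17.6% were above and 25.6% below. Fgf17 differed more between the sham arrays (4.60 and 5.49) than between the groups, with 0.15 ± 0.31.

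In the FGF9 group, Fgf9, an FGF made by neurons, read 8.85 and 8.87 on ECS arrays and 9.00 and 9.12 on sham arrays. The groups did not overlap, and the difference was -0.20 ± 0.09 (SE, limma adjusted p = 0.348). Of its 3 probesets, 2 had -0.42 and -0.39 with both ECS arrays below, where 25.6% of all probesets were. The remaining probeset had 0.20 with overlapping arrays. Fgf16 had the most negative value of the group, -0.51 ± 0.29, but its sham arrays read 5.45 and 4.68 and overlapped with the ECS arrays at 4.77 and 4.35. It was among the dimmest 25% of all genes. Fgf20 read 6.21 and 6.56 on ECS arrays and 6.27 and 5.86 on sham arrays, and its 0.32 ± 0.19 (SE, limma adjusted p = 0.445) is the highest value among the ligands.

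The endocrine ligands had no separation between the groups. Fgf15, the gut hormone that limits bile acid synthesis, had a difference of -0.07 ± 0.18. Fgf21, a fasting hormone of the liver, had 0.03 ± 0.11, and Fgf23, the bone hormone of phosphate excretion, had 0.13 ± 0.15. All 3 overlapped between the groups, and their lowest limma adjusted p was 0.712. The interval of Fgf21 runs over -0.25 to 0.31.

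Of the 4 intracellular FGF homologous factors, Fgf14 alone had groups that did not overlap, with both ECS arrays below, where 30.7% of all genes were. Fgf14, which binds sodium channels at the start of the axon and is mutated in a human ataxia, read 9.26 and 9.15 on ECS arrays and 9.57 and 9.48 on sham arrays. Both ECS arrays were below both sham arrays by more than the distance within a group. The difference was -0.32 ± 0.10 (SE), 1.25-fold lower after ECS, with an unadjusted p of 0.0194 and a limma adjusted p of 0.209. All 8 probesets were lower, and 7 had both ECS arrays below, where 25.6% of all probesets did. The 6 probesets that both Fgf14 transcripts share had a mean difference of -0.36, and the 2 listed only for the transcript NM_207667 had -0.21. Fgf12 and Fgf13 had 0.03 ± 0.09 and -0.01 ± 0.10, with intervals of -0.20 to 0.25 and -0.28 to 0.25, and Fgf11 had -0.13 ± 0.13; each of the 3 overlapped. The single probeset listed only for the Fgf12 transcript NM_010199 had 0.16.

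The sodium channel genes that these factors bind were in a list of other partners. Scn3a read 9.38 and 9.30 on ECS arrays and 9.81 and 9.88 on sham arrays, a difference of -0.51 ± 0.09 (SE, limma adjusted p = 0.102). Scn1a, Scn8a and Scn2a, chosen after their values were seen, had -0.32, -0.25 and -0.21, and Mapk8ip2, a scaffold of the homologous factors, had -0.20. None of these 5 passed the test. Granule cell markers, in the same tissue, had a median of -0.52, from -2.86 for Tdo2 to 0.22 for Prox1. Of the 11, 7 had both ECS arrays below, 2 both above and 2 overlapped, beside 30.7% below and 18.7% above over all genes. The list had a summed intensity of 5961 and 6345 on ECS arrays and 7353 and 7844 on sham arrays. The part of these markers in the values of Fgf14, Fgf5 and Flrt3 was not tested.

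The 4 signalling receptors all had positive differences, with a median of 0.26, and 3 of them had both ECS arrays above both sham arrays, as 18.7% of all genes did. Fgfr1, the main FGF receptor of neurons and neural stem cells, read 9.16 and 9.14 on ECS arrays, against 8.70 and 8.80 on sham arrays. The ECS arrays lay close together and well above both sham arrays. The difference was 0.40 ± 0.09 (SE; 95% interval 0.17 to 0.63), 1.32-fold higher after ECS, with an unadjusted p of 0.0066 and a limma adjusted p of 0.144. With trend and robust eBayes, which called 2.03% of all genes higher, the adjusted p was 0.0412, past the threshold; over all alternatives it ran between 0.0412 and 0.374. Of the 28 Fgfr1 probesets, 26 were higher on average and 24 had both ECS arrays above both sham arrays, where 17.6% of all probesets did, and their median difference was 0.44.

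Fgfr3, a receptor gene of astrocytes, read 9.33 and 9.50 on ECS arrays and 9.16 and 9.17 on sham arrays. The groups did not overlap, and the difference was 0.25 ± 0.10 (SE, limma adjusted p = 0.303). Of its 22 probesets, 21 had a positive difference and 15 had both ECS arrays above, where 17.6% of all probesets did. The 10 measured astrocyte markers had a median difference of 0.01, and their summed intensity was 13968 and 14213 on ECS arrays, against 14148 and 14394 on sham arrays. The part of these cells in the Fgfr3 value was not tested.

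Fgfr4 read 6.03 and 6.17 on ECS arrays and 5.87 and 5.80 on sham arrays, a difference of 0.26 ± 0.10 (SE, unadjusted p = 0.0429, limma adjusted p = 0.283). Its 20 probesets were less uniform than those of Fgfr1: 13 were higher and 7 lower on average, with a median difference of 0.19. Of the 20, 8 had both ECS arrays above, 2 had both below and 10 overlapped, beside 17.6% above and 25.6% below over all probesets. Single values ran between -0.50 and 1.87. Fgfr2, a receptor gene of oligodendrocytes and astrocytes, read 8.28 and 7.92 on ECS arrays and 7.88 and 8.09 on sham arrays. Its groups overlapped, the difference was 0.12 ± 0.15 (SE, limma adjusted p = 0.753), and without ECS 1 it was -0.07. Of 10 oligodendrocyte lineage markers, 7 were also highest on ECS 1, all but Olig2, Cspg4 and Sox10, and the list had a summed intensity of 10912 and 7706 on ECS arrays and 8636 and 8026 on sham arrays; their part in the Fgfr2 value was not tested. Fgfrl1, which binds FGFs but lacks the kinase domain, had -0.01 ± 0.12 with overlapping groups.

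**Figure D2:**
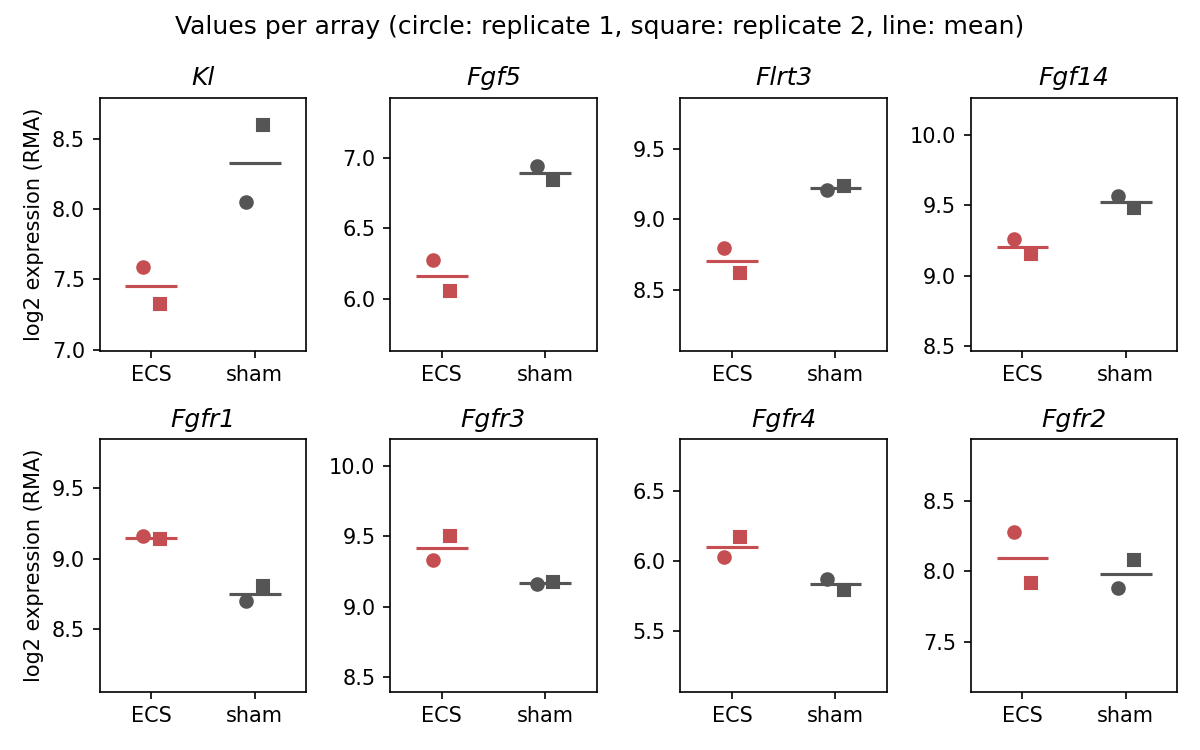
Log2 expression (y axis) on each array of the 2 ECS (red, left) and 2 sham (grey, right) arrays for 4 genes with negative and 4 with positive differences. Circles are replicate 1, squares replicate 2 and lines group means; every panel spans the same number of log2 units, and only Fgfr2 has overlapping groups.

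**Figure D3:**
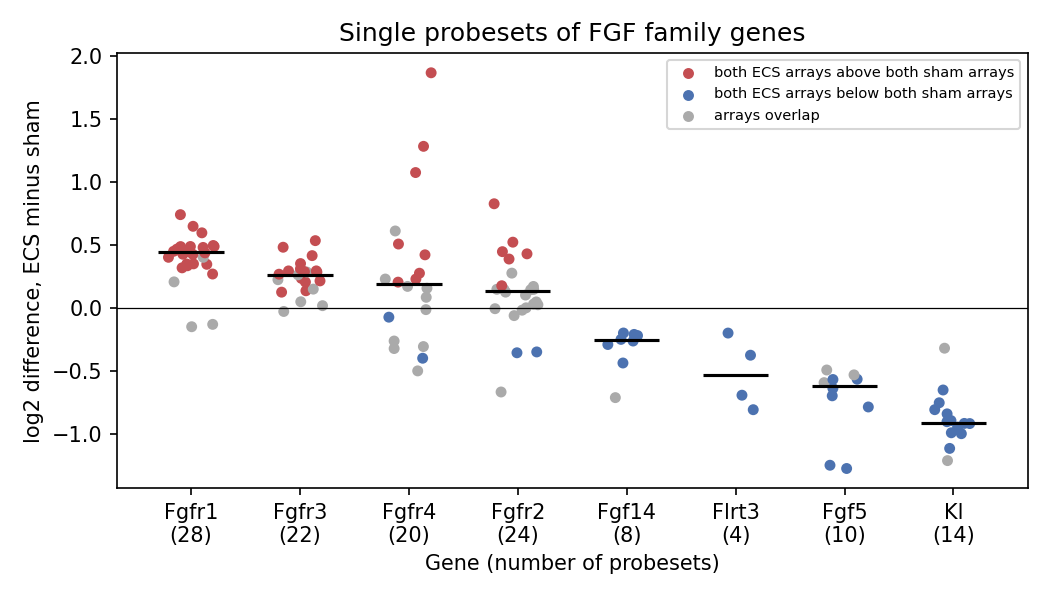
Difference in log2 value (ECS minus sham, y axis) of each single probeset of 8 family genes (x axis, number of probesets in brackets). Red points have both ECS arrays above both sham arrays, blue points both below and grey points overlap, and bars mark medians; for Kl, Fgf5, Flrt3 and Fgf14 every probeset lies below 0, and 24 of 28 Fgfr1 points are red.

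Kl had the largest difference of the family. Klotho is the co-receptor of FGF23 in the kidney, and in the brain the gene is known to be highly expressed in the choroid plexus and also present in hippocampal neurons. It read 7.59 and 7.32 on ECS arrays, against 8.05 and 8.60 on sham arrays. Both ECS arrays were below both sham arrays, and the sham arrays lay further from each other than the ECS arrays did. The difference was -0.87 ± 0.21 (SE; 95% interval -1.40 to -0.35), 1.83-fold lower after ECS, with an unadjusted p of 0.0075 and a limma adjusted p of 0.152. All 14 Kl probesets were lower after ECS, and 12 had both ECS arrays below both sham arrays, where 25.6% of all probesets did.

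Kl was highest on sham 2, the array on which all 11 choroid plexus markers were highest. These markers had a median difference of -0.42, from -1.92 for Ttr, the choroid plexus gene of transthyretin, to -0.03 for Aqp1. Ttr read 6.55 and 5.90 on ECS arrays and 6.12 and 10.16 on sham arrays. Without sham 2 the Kl difference was -0.60, and without sham 1 it was -1.15. On sham 1, whose choroid plexus sum of 1425 lay between those of the ECS arrays, Kl at 8.05 was above both ECS arrays. The part of choroid plexus tissue in the Kl difference was not tested. Klb, the co-receptor of FGF21, had 0.01 ± 0.32, and its groups overlapped, with a wide interval of -0.80 to 0.82.

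**Figure D4:**
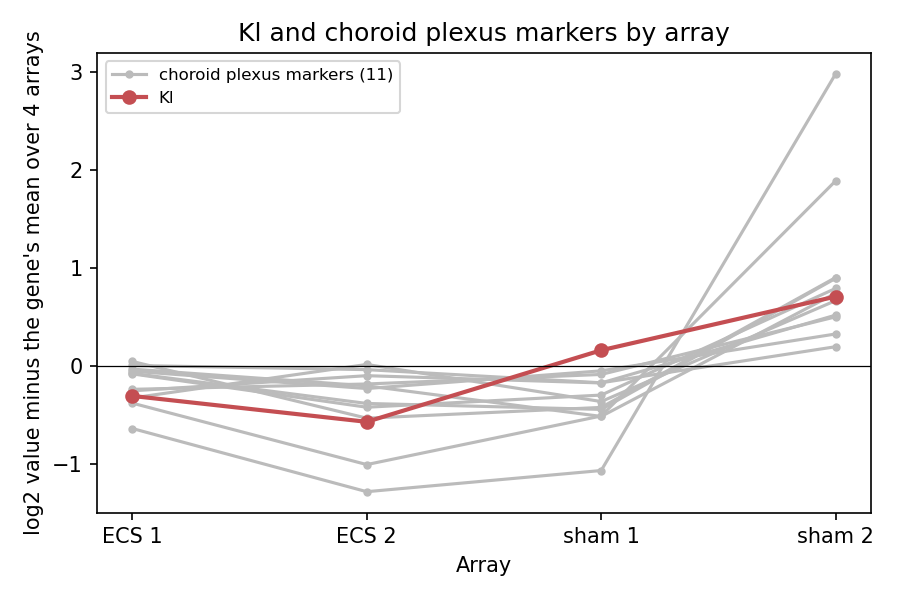
Log2 value of Kl (red) and of the 11 choroid plexus markers (grey) on each array (x axis), less the gene's own mean over the 4 arrays (y axis). All 11 markers peak on sham 2, as does Kl, while on sham 1 Kl at 8.05 is above its ECS values of 7.59 and 7.32. The part of choroid plexus tissue in the Kl difference was not tested.

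Flrt3 and Flrt2 encode membrane proteins that bind FGF receptors as well as latrophilins and UNC5 receptors, and FLRT3 is known in mice as a postsynaptic partner of latrophilin 3 in the hippocampus. Flrt3 read 8.80 and 8.62 on ECS arrays, against 9.21 and 9.23 on sham arrays. The groups were well apart, and the sham arrays nearly coincided. The difference was -0.52 ± 0.10 (SE; 95% interval -0.77 to -0.26), 1.43-fold lower after ECS, with an unadjusted p of 0.0035 and a limma adjusted p of 0.114. With trend and robust eBayes it was 0.0259, past the threshold, and over all alternatives it ran between 0.0259 and 0.346.

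All 4 Flrt3 probesets had both ECS arrays below both sham arrays, where 25.6% of all probesets did, with differences between -0.80 and -0.20. All 4 are also listed for Macrod2, a gene on the opposite strand, so none is listed for Flrt3 alone. The 26 Macrod2 probesets outside Flrt3 had a mean difference of 0.12. Of them, 0 had both ECS arrays below and 4 both above, beside 25.6% and 17.6% of all probesets. Which gene the shared probesets measure was not tested. Flrt2 read 8.57 and 8.44 on ECS arrays and 8.68 and 8.69 on sham arrays, a difference of -0.18 ± 0.09 (SE, limma adjusted p = 0.396), and its groups did not overlap. The latrophilin genes Adgrl1, Adgrl2 and Adgrl3 had 0.07 ± 0.09, -0.26 ± 0.36 and 0.24 ± 0.10, and the netrin receptor genes Unc5b and Unc5d had 0.28 ± 0.12 and -0.08 ± 0.09, so these partners had no common direction.

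The start regions of Kl and Flrt3 are shown beside that of Fgf5 because these 3 genes have the largest negative differences in the family. In RefSeq (GRCm38.p6) the window of Kl is chr5:150952357-150952656 on the plus strand and that of Flrt3 chr2:140671427-140671726 on the minus strand; neither holds any of the 6 motifs searched, so no letters are in capitals.
Kl promoter: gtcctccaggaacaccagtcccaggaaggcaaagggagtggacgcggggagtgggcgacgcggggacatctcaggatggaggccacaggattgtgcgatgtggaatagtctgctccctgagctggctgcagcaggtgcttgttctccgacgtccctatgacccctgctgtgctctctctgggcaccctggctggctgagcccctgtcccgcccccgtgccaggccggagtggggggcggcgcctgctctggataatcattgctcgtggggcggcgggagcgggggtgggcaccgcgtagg
Flrt3 promoter: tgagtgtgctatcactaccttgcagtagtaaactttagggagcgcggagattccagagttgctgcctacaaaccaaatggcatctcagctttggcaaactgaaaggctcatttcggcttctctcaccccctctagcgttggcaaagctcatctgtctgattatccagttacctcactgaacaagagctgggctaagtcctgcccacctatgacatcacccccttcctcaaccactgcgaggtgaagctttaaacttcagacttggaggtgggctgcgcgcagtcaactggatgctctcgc
They differ in CpG content, with 19 CpG dinucleotides for Kl, 8 for Flrt3 and 29 for Fgf5.

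The adaptors Frs2 and Frs3, which carry the signal of activated receptors to GRB2, had overlapping groups. Frs2 had -0.08 ± 0.22, with ECS arrays at 7.45 and 6.85 that lay further apart than the sham arrays at 7.10 and 7.37. Frs3 had 0.04 ± 0.09, with an interval of -0.19 to 0.27.

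Of 94 genes listed as partners of FGF signalling, 91 were measured, and limma called 0 higher and 0 lower, beside the 0.5% and 0.194% of all genes. At an unadjusted p under 0.05, 12 were higher and 14 lower, where 6.39% and 10.5% of all genes were. Both ECS arrays lay above both sham arrays for 24 and below for 27, where 18.7% and 30.7% of all genes did. Their median difference was -0.05.

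Feedback inhibitors and transcriptional targets of the pathway had a median of 0.16 over 17 of 20 listed genes, and 8 had both ECS arrays above, 5 both below, beside 18.7% and 30.7% of all genes. Dusp5, a nuclear phosphatase of ERK, read 7.26 and 7.41 on ECS arrays, against 6.65 and 6.49 on sham arrays. The groups were clearly apart, with 0.76 ± 0.11 (SE, limma adjusted p = 0.0683). Etv1, an ETS transcription factor, pointed the other way, with 9.64 and 9.78 on ECS arrays and 10.28 and 10.31 on sham arrays, a difference of -0.58 ± 0.10 (SE, limma adjusted p = 0.0908). Chosen after their values were seen, Dusp4 had 0.73 ± 0.11, Spred2 0.57 ± 0.09 and Egr1 0.53 ± 0.09, while Dusp6 and Etv5, which are often used as FGF readouts, had 0.16 ± 0.09 and 0.20 ± 0.09. In the same list Etv4, a further ETS factor gene, and Il17rd, which encodes the inhibitor SEF, had -0.29 ± 0.10 and -0.26 ± 0.09, both with the ECS arrays below the sham arrays. These targets also respond to other activators of the MAPK cascade. Spry2, Spry3 and Spry4 were not measured, and Spry1 had -0.06 ± 0.11.

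The 25 adaptors and members of the Ras-MAPK arm had a median of -0.04. Grb2, the adaptor that FRS2 recruits, read 9.05 and 8.91 on ECS arrays and 8.34 and 8.49 on sham arrays, and had the highest value of the list at 0.56 ± 0.11 (SE, limma adjusted p = 0.107).

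The 31 heparan sulfate proteoglycans and their enzymes had a median of -0.06. Ndst4, which removes acetyl groups from heparan sulfate and adds sulfate, read 7.56 and 7.68 on ECS arrays and 8.55 and 8.20 on sham arrays. Its groups did not overlap, and the difference was -0.76 ± 0.14 (SE, limma adjusted p = 0.108). The highest value, 0.55 ± 0.34, was that of the sulfotransferase gene Hs3st2 (limma adjusted p = 0.472). Among the 18 other partners, with a median of -0.07, Cdh2, the N-cadherin gene whose protein binds FGFR1, had the highest value, with 10.68 and 10.61 on ECS arrays and 10.10 and 10.33 on sham arrays (0.43 ± 0.11, SE, limma adjusted p = 0.179).

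**Figure D5:**
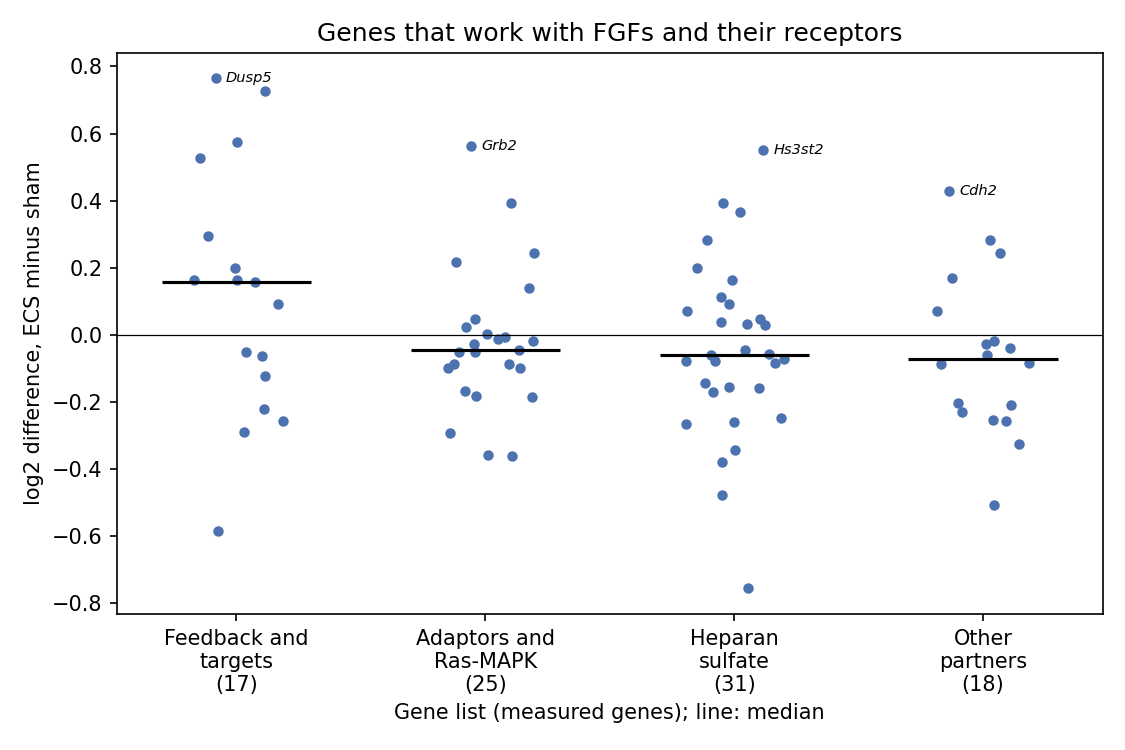
Difference in log2 expression (ECS minus sham, y axis) of 91 genes that work with FGFs or their receptors, by list (x axis, number measured in brackets). Each point is 1 gene, bars mark list medians and the highest gene of each list is named; the feedback list has the highest median, 0.16, and no gene of the 4 lists passed the test.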

How the data were processed

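RNA from 2 ECS and 2 sham samples was hybridised to Affymetrix exon arrays. The authors deposited log2 values normalized by RMA with the oligo package, per the submitters' processing notes; their versions and the build are not given in the sources used here. The per-transcript table equalled, within 1e-06, the mean of the mapped probesets of 1 labelled array in the deposited probeset table for all 22485 rows with probesets, which tied each column to a replicate number. The 3621 rows without a probeset are listed at 0 and were left out. Symbols came from RefSeq (24928 of 25635 identifiers matched), and the row with the highest mean stood for a gene, which left 18010 genes.

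ECS was compared with sham by limma 3.58.1 in R 4.3.3 (lmFit, eBayes, two-sided), with Benjamini-Hochberg adjustment over all genes; residual degrees of freedom were 2 and prior ones 3.23. The script was tested on simulated data. P-values measure the spread between these arrays. Summed intensities are sums of unlogged values over a marker list. Family members, partner lists and marker lists were chosen with earlier results of these data known. Named genes are all measured members, plus the highest and lowest of each partner list and marker list, with exceptions stated; 1 gene that the rule names is not reported here. Alternatives were median centring, quantile normalization, leaving out each array, a filter on dim genes, averaging the rows of a gene, shared probesets left out, trend and robust eBayes, a replicate block and another fold.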

Additional observations from a re-analysis of the deposited data

How the results depend on the processing

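The counts of called genes depended on the fit. Over all 18010 genes, the 90 higher and 35 lower calls became 242 and 216 of 13507 genes with the dimmest 25% left out. With trend and robust eBayes they became 365 and 352 (2.03% and 1.95% of genes). Median centring left 18 lower calls. Calls with 1 array left out numbered 0 to 5 upward and 0 to 2 downward: 5 and 2 without sham 1, and 0 without sham 2, ECS 1 or ECS 2, fits in which limma had 949 to 1122 higher and 1075 to 1621 lower genes at an unadjusted p under 0.05. In the family, trend and robust eBayes called 1 gene higher (Fgfr1) and 2 lower (Fgf5 and Flrt3). Leaving out the dimmest genes, which removed 8 of the 33, called 1 lower (Fgf5), beside 216 of all 13507 genes. The 8 removed were Fgf3, Fgf4, Fgf6, Fgf7, Fgf15, Fgf16, Fgf17 and Klb. Of the 89 partner genes kept without the dimmest genes, 5 were called higher and 2 lower, beside 242 and 216 of all 13507 genes. With trend and robust eBayes, 6 of the 91 partner genes were called higher and 4 lower, beside 2.03% and 1.95% of all genes. At 2-fold, 0 family genes were lower. With the replicate number as a block, 26 of all 18010 genes were called higher and 6 lower, and 0 in the family. At an unadjusted p under 0.05 in that limma fit, 1 family gene was higher and 5 were lower, beside 874 and 1312 of all genes. Deviations of same-numbered arrays correlated at -0.203. The crossed pairing, added after seeing the data, gave 106 and 48 calls. Of 385 values of single family genes under the alternatives, 360 kept their sign, 25 did not and 4 gained the threshold. Throughout, 17 genes kept their sign, and Kl, Fgf5, Flrt3, Fgf14, Fgfr1, Fgfr3 and Fgfr4 are among them. Much of this was fixed in advance. Trend and robust eBayes, the filters and the replicate block leave a gene's difference unchanged. A gene whose groups do not overlap also keeps its sign when any 1 array is left out. The causes of the shifts between settings were not tested. Median centring moved the median difference of all genes to 0.04, against -0.04.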
